A study of Mus musculus with 26 samples.

Results

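A set of 5 mouse genes carry the signals of bone morphogenetic proteins (BMP) and transforming growth factor beta (TGF-beta) from the cell membrane to the nucleus, and their RNA was followed here in the epithelium of the proximal small intestine. They are Smad1, Smad5, Smad4, Smad2 and Smad3. The genes were chosen by symbol, and all 5 had a row in each of the 4 deposited expression tables, which together listed 20409 distinct symbols. Mutant libraries were compared with the control libraries of the same table.

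BMP ligands bind paired membrane receptors, which phosphorylate SMAD1, SMAD5 and SMAD9. TGF-beta and activin receptors phosphorylate SMAD2 and SMAD3 in the same way. Both groups of receptor-activated SMADs bind SMAD4, the shared partner, and the complexes enter the nucleus, where they change transcription, among other places at the genes of the inhibitory SMADs, SMAD6 and SMAD7. In the small intestine BMP signalling is strongest on the villus, where enterocytes mature, and is held low around the crypt base.

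The libraries came from whole epithelial preparations and held polyadenylated RNA. Villin-CreERT2, a tamoxifen-activated recombinase driven by the promoter of an epithelial gene, removed the targeted genes in mutants. All mutants received tamoxifen on 4 consecutive days, and days count from its first injection. The day 6 SMAD1/5 table held 3 control libraries, given tamoxifen, and 3 libraries labelled SMAD1/5 iDKO (inducible deletion of Smad1 and Smad5). The day 30 table held 2 tamoxifen-treated controls of the SMAD1/5 line, 3 oil-treated controls of the SMAD1/4/5 line, 2 SMAD1/5 iDKO libraries and 3 SMAD1/4/5 iTKO libraries, in which Smad4 was targeted as well. In the SMAD4 table were 2 oil-treated controls and 2 SMAD4 iKO libraries, all at day 6. In the TBX3 table, at day 30, were 3 oil-treated controls and 3 TBX3 iKO libraries. TBX3 is a T-box transcription factor, so that none of the 5 SMAD genes was targeted there. Controls were littermates of the same sex, and those given tamoxifen lacked Cre while those given oil carried it. Recombinase activity therefore goes with the deletion in every comparison with controls, and in the SMAD4 and TBX3 tables, as in the iTKO mice against their own line, tamoxifen goes with it too. The labels do not tie a library to an animal, so p-values measure only the spread between libraries, which may be technical.

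In the GRCm38 annotation, Smad1 lies at chr8:79338395-79399518 on the minus strand, Smad5 at chr13:56703010-56742377 on the plus strand and Smad3 at chr9:63646767-63757994 on the minus strand. These positions describe the genes and may not be those of the build behind each table. The stretches next to the annotated starts of Smad5 and Smad1, the paralogues deleted together, are shown from RefSeq's promoter windows (GRCm38.p6) because their RNA levels parted in the mutants, and beside them 30 bases across the start of Smad6, which fell furthest on the log2 scale among the SMAD genes tested. The SMAD-binding motifs GGCGCC, GTCTAGAC and CAGAC were searched on both strands, where CAGAC and GTCTAGAC overlap in their AGAC. Capitals mark GTCTAGAC, a palindrome of the SMAD box. The Smad5 stretch ends 1 base before the gene's first base, the Smad1 stretch is shorter because its annotated start lies within the RefSeq window, and all are printed 5′ to 3′ on the gene's strand.
Smad5, chr13:56702760-56703009, plus strand: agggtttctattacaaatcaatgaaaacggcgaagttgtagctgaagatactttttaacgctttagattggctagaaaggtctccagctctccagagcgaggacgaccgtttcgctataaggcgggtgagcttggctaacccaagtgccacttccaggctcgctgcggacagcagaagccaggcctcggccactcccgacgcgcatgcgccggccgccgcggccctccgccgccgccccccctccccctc
Smad1, chr8:79399519-79399678, minus strand: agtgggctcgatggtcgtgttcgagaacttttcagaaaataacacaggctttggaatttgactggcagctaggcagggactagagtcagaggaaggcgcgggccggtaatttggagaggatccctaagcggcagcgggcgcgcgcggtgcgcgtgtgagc
Smad6, chr9:64022045-64022074, minus strand: gccgccaaagtGTCTAGACtggcatatgat
None of these motifs was found in the 250 bases shown for Smad5 or the 160 bases shown for Smad1. The 250 bases before the start of Smad6 held none of them either. The Smad6 stretch was instead cut around its palindrome, which spanned the start site, with 4 bases before it and 4 after it. The palindrome was absent from the 300-base windows of Smad5 and Smad1. GTCTAGAC occurred in 0.213% of all 32851 RefSeq windows of 300 bases. Among the first 250 bases of those windows, GGCGCC occurred in 9.59% and CAGAC in 42.2%, and among the first 160 bases in 5.30% and 30.3%. Neither the presence nor the absence of these letters in a window carries a statement about binding. The window of Smad7 was not looked at on its own.

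Values were deposited as fragments per kilobase and per-million fragments (FPKM). The steps between FPKM values gave the depth of each library in megafragments, which was 20.99 to 30.5 at day 6 in the SMAD1/5 table, 13.1 to 18.1 at day 30 and 10 to 18.6 for TBX3. No depth could be had for the SMAD4 table. The members were well covered at these depths. In the tables with a known depth each was read by 247 to 6241 fragments per library, for a counting SD of 1.27% to 6.36%, which covers counting error only. All 10 epithelial markers were present in every table, and their summed FPKM was 12007 to 24433 in all libraries. Markers of mesenchyme summed to at most 13.4 FPKM, those of smooth muscle to at most 7.33 and those of endothelium to at most 1.90. Immune markers were lower in several mutant groups: their sum was 153 to 226 FPKM in the day 30 controls, 70.8 to 108 in iDKO and 61.0 to 95.04 in iTKO. In the SMAD4 table it was 91.1 to 115 in controls and 30.4 to 52.0 in SMAD4 iKO. At day 6 in the SMAD1/5 table it was 92.1 to 123 in controls and 38.5 to 98.6 in iDKO, and for TBX3 it was 62.2 to 107 in controls and 23.8 to 151 in TBX3 iKO. Its part in the results below was not tested.

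Smad4 was the most abundant of the 5 RNAs in the controls of 3 tables. On the FPKM scale it stood at 51.1 ± 7.25 (SD, n = 3) in the day 6 controls, 147 ± 15.1 (SD, n = 5) in the day 30 controls and 48.4 ± 0.920 (SD, n = 3) in the TBX3 controls. The high value at day 30 followed the length by which fragments were divided. The FPKM of the day 6 and TBX3 tables gave whole fragment numbers with the length of all exons of a gene joined (3712 bases for Smad4), and those of the day 30 table with the mean length of its annotated transcripts (1337 bases). As fragments scaled for depth alone (FPM, the FPKM without its division by length), without any length, Smad4 stood at 190 ± 26.9 (SD, n = 3), 196 ± 20.1 (SD, n = 5) and 180 ± 3.42 (SD, n = 3) in the same 3 groups of controls. FPKM levels were thus compared only within a table. In the SMAD4 table neither length gave a fragment step, so the length used there is not known. It listed Smad4 at 24.9 and 22.9 FPKM in its controls and Smad1 at 21.9 and 25.9. The order of these genes thus overlapped there.

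With a single length per gene, the joined exons of the GRCm38 annotation, the order in the controls of the day 6, day 30 and TBX3 tables was Smad4, Smad1, Smad3, Smad5 and Smad2. At day 6 the means were 51.1 ± 7.25, 9.62 ± 0.775, 8.32 ± 0.733, 5.95 ± 0.334 and 3.52 ± 0.508 FPM per kilobase (SD, n = 3). Smad1 and Smad3, neighbours in that order, overlapped in all 3 tables, with 8.77 to 10.3 for Smad1 and 7.62 to 9.08 for Smad3 at day 6. Smad4 stood above every other member without overlap. At day 30 Smad3 (6.31 to 10.2) also overlapped with Smad5 (6.17 to 7.21). The place of Smad2 rests on its length: the day 6 and TBX3 tables gave whole fragments with 3549 bases, against 8781 bases of joined exons in the annotation used here.

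**Figure D1:**
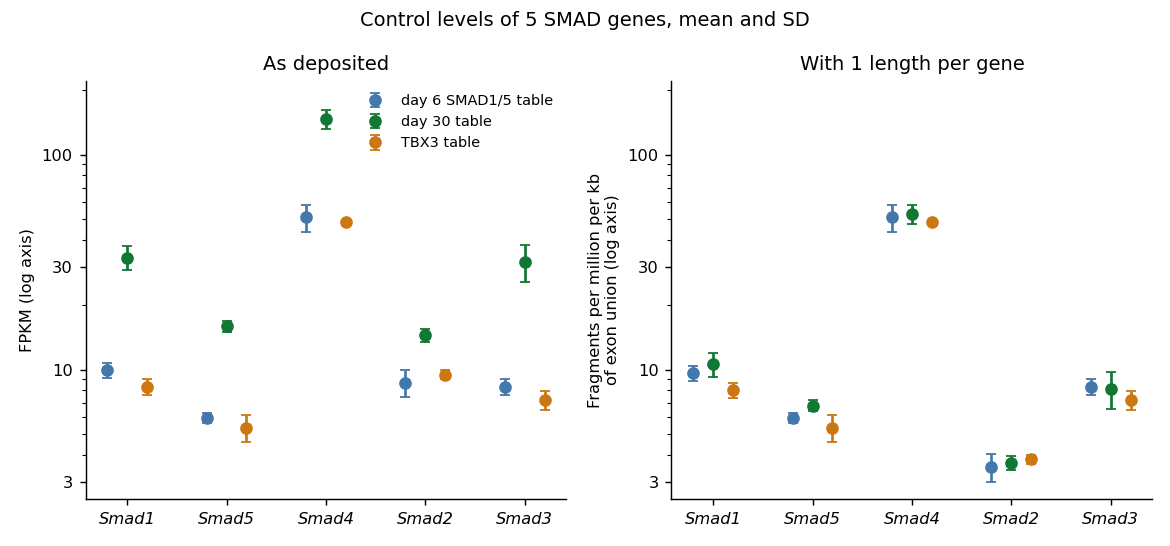
Levels of the 5 SMAD genes in control libraries, as deposited in FPKM (left) and as FPM per kilobase of joined exons (right), both on log axes; points are means and bars SDs over 3 (day 6), 5 (day 30) and 3 (TBX3) controls. Smad4 lies at 147 FPKM at day 30 against 51.1 and 48.4 in the other tables on the left, while on the right its 3 points lie at 48.4 to 52.9.

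Smad1, one of the genes targeted in iDKO and iTKO mice, kept a level within the range of its controls or close to it in every comparison. At day 6 the controls stood at 9.07, 10.6 and 10.2 FPKM and the iDKO libraries at 8.34, 9.20 and 10.2 FPKM. The groups overlapped, with a fold change of 0.930 (95% interval 0.775 to 1.12) and a limma adjusted p of 0.499. At day 30 the 5 controls ranged from 27.8 to 38.4 FPKM, the iDKO libraries stood at 28.4 and 27.1 FPKM, and the iTKO libraries at 26.6, 32.5 and 40.5 FPKM. One iDKO library was below every control and the other was not. The fold change was 0.844 (0.660 to 1.08) in iDKO and 0.993 (0.801 to 1.23) in iTKO, with limma adjusted p of 0.331 and 0.973. The longest inner exon of Smad1, exon 2, holds 581 bases or 9.28% of the joined exons, while the last exon holds 37.2%. Which exons the alleles delete is not given in the sources used here, so the share of fragments that a deletion would remove is not known.

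Where Smad1 is not the target, it also overlapped between groups. The SMAD4 controls stood at 21.9 and 25.9 FPKM and the SMAD4 iKO libraries at 27.4 and 21.4 FPKM, with 1 mutant library above and 1 below both controls (fold change 1.02, 0.737 to 1.403). The TBX3 controls stood at 8.29, 9.01 and 7.62 FPKM and the TBX3 iKO libraries at 8.28, 9.85 and 7.005 FPKM (fold change 1.00, 0.790 to 1.27). Neither passed the test, with limma adjusted p of 0.963 and 0.998.

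Smad5, its paralogue and the other gene deleted in iDKO mice, rose in all 3 groups in which both genes were targeted. At day 6 the controls stood at 6.33, 5.83 and 5.69 FPKM and the iDKO libraries at 13.1, 10.4 and 10.6 FPKM. Every iDKO library exceeded every control, and the highest control was well below the lowest mutant. The fold change was 1.83 (95% interval 1.51 to 2.23, limma adjusted p = 0.0041). The median change of all genes in that comparison was 0.18 on the log2 scale, and once this shift was taken out of every library by centring on the median, the log2 change of Smad5 was 0.70 instead of 0.88. At day 30 the controls stood at 15.7, 16.9, 16.1, 16.5 and 14.4 FPKM, the iDKO libraries at 26.9 and 31.8 FPKM, and the iTKO libraries at 31.7, 30.5 and 32.1 FPKM. All 5 mutant libraries were again above all 5 controls, which lay close together. The rise was 1.81-fold (1.57 to 2.10, limma adjusted p = 2.2e-04) in iDKO and 1.95-fold (1.72 to 2.21, limma adjusted p = 6.5e-05) in iTKO, against the same 5 controls.

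The Smad5 rise did not differ measurably between iTKO and iDKO, at a ratio of 1.07 (0.916 to 1.26, limma adjusted p = 0.785). The joined exons of Smad5 hold 7420 bases, of which its last exon takes 68.0% and exon 2, its longest inner exon, 568 bases or 7.66%. As for Smad1, the deleted exons are not given, so the gene-level value does not check the deletion. For Smad1 and Smad5, the labels alone name these libraries as mutants.

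Smad5 did not rise where Smad4 alone or Tbx3 was targeted. The SMAD4 controls stood at 5.98 and 5.81 FPKM and the SMAD4 iKO libraries at 5.88 and 5.15 FPKM. One mutant library lay between the controls and the other below both, and the fold change of 0.939 (0.705 to 1.25, limma adjusted p = 0.805) has an interval that ends below the rises of the other table, which were not compared with it by a test. The TBX3 controls stood at 4.47, 5.89 and 5.69 FPKM and the TBX3 iKO libraries at 3.33, 3.05 and 4.36 FPKM. All 3 mutant libraries were below all 3 controls, though by little for the closest pair. The fold change was 0.695 (0.528 to 0.915) and the limma adjusted p 0.167, so it did not pass.

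**Figure D2:**
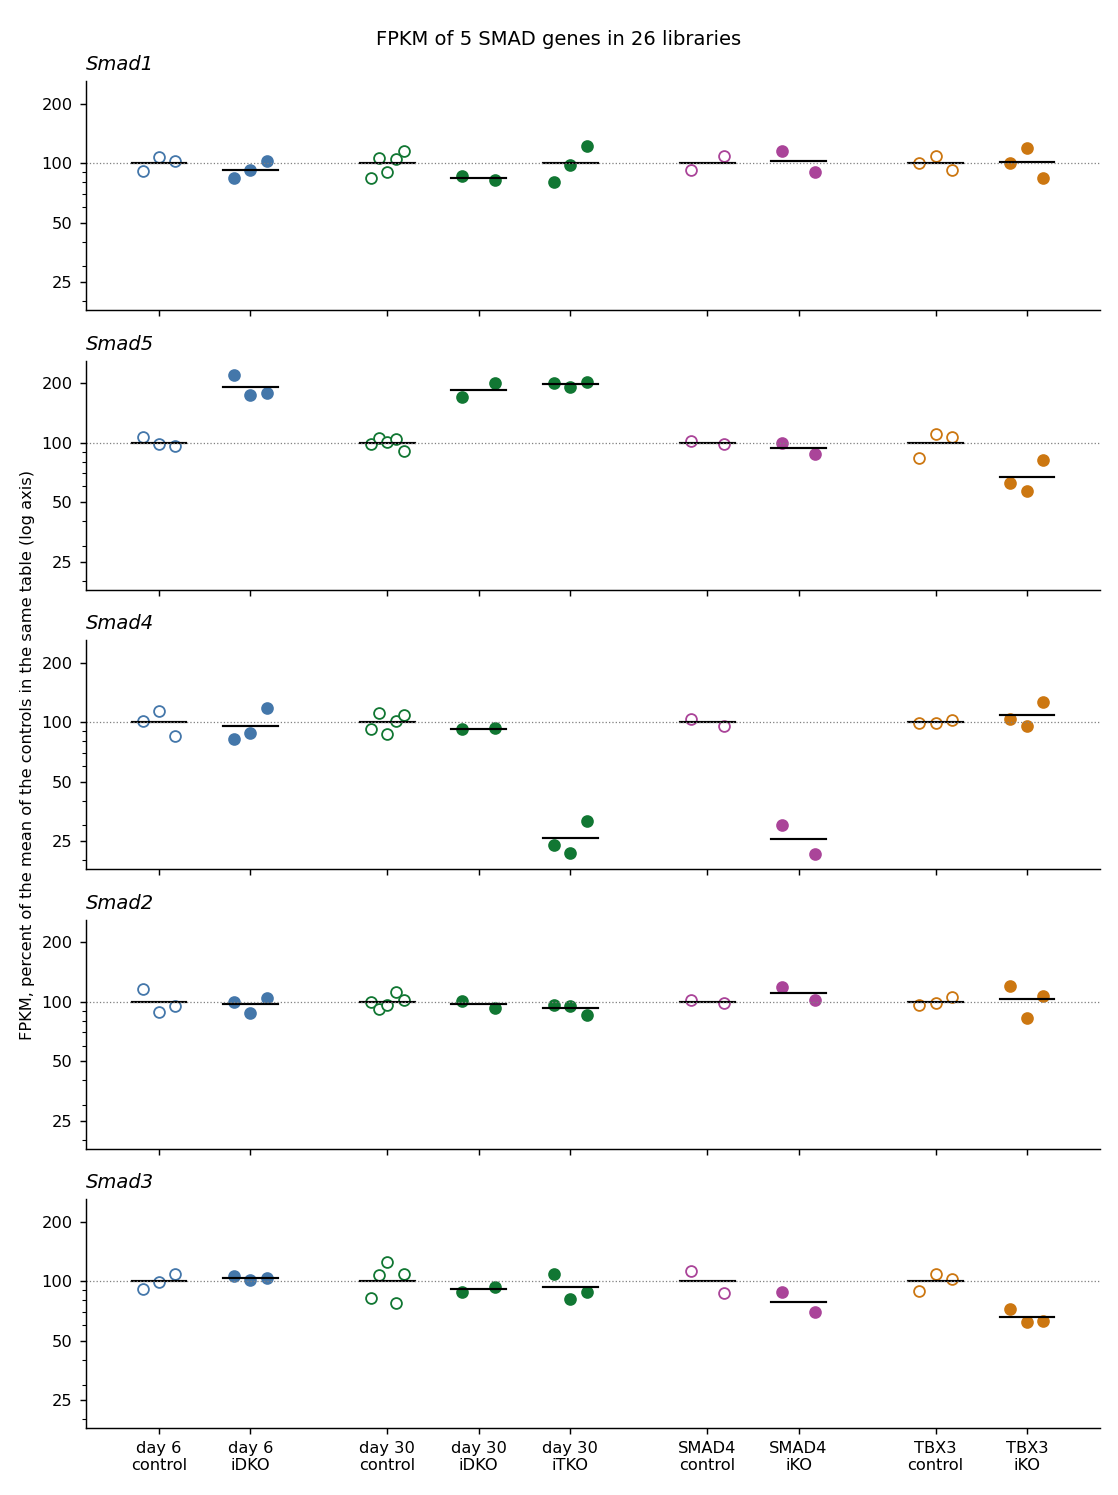
FPKM of each SMAD gene in each of the 26 libraries as percent of the mean of the controls in the same table, on a log axis; open circles are controls, filled circles mutants and bars group means. Smad5 lies at 169% to 221% in the 8 iDKO and iTKO libraries, Smad4 at 21.4% to 31.8% in the 5 libraries in which it was targeted, and the remaining values from 57.0%, for Smad5 in a TBX3 iKO library, to 127%, for Smad4 in another.

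The ratio of Smad5 to Smad1 within a library removes whatever scales both genes alike. At day 6 it was 0.698, 0.549 and 0.559 in the controls and 1.57, 1.13 and 1.05 in the iDKO libraries. At day 30 it was 0.376 to 0.563 in the 5 controls, 0.947 and 1.17 in iDKO, and 1.19, 0.937 and 0.792 in iTKO. In all 8 mutant libraries of these groups the ratio was above every control of the same table. On the log2 scale the difference was 0.98 at day 6 (exact permutation test, two-sided, p = 0.1, the smallest that 3 against 3 allows). It was 1.11 in day 30 iDKO (exact permutation p = 0.0952) and 0.97 in iTKO (exact permutation p = 0.0357), each also the smallest possible for its group sizes. Adjusted over the 6 comparisons, the exact permutation p was 0.2 for each of these 3. The ratio in SMAD4 iKO, 0.214 and 0.240, overlapped with its controls at 0.273 and 0.224 (exact permutation p = 0.667, adjusted 0.8, where 2 against 2 cannot go below 0.333). The TBX3 iKO libraries stood at 0.402, 0.309 and 0.622 against 0.539, 0.654 and 0.746 in controls, with overlap (exact permutation p = 0.2, adjusted 0.3). Between iTKO and iDKO the log2 difference was -0.13 (exact permutation p = 0.8, with 0.2 the smallest possible).

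**Figure D3:**
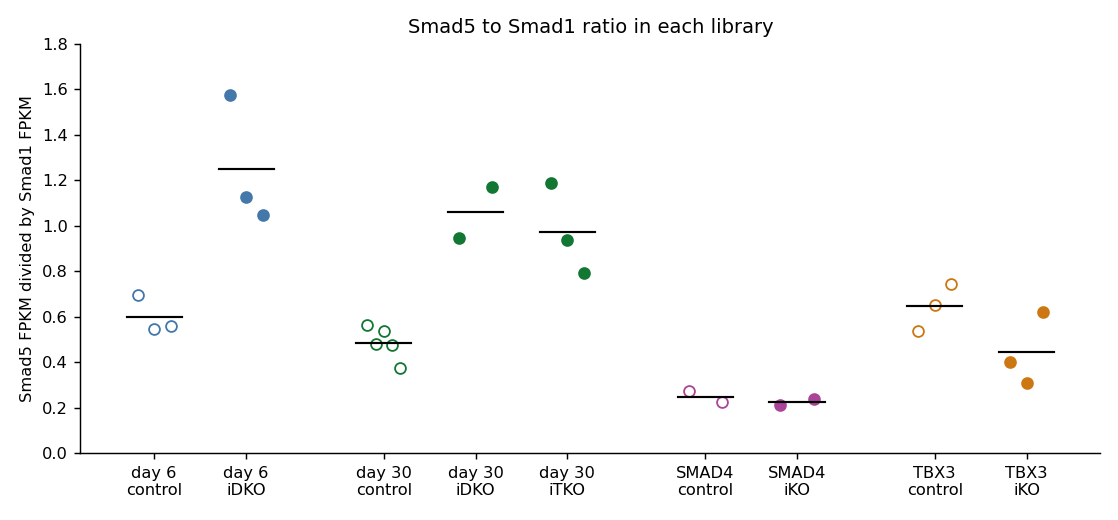
Smad5 FPKM divided by Smad1 FPKM in each library; open circles are controls, filled circles mutants, bars group means, and colours mark the 4 tables. The iDKO and iTKO libraries lie at 0.792 to 1.57, above the controls of their own tables, which lie at 0.376 to 0.698.

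Smad4, the shared partner (chr18:73639009-73703780, minus strand, GRCm38), fell where it was targeted and was not called in the groups where it was not. In the day 30 table the controls stood at 136, 163, 128, 149 and 160.0 FPKM, the iDKO libraries at 135 and 138 FPKM, and the iTKO libraries at 35.3, 32.1 and 46.7 FPKM. The 3 iTKO libraries lay far below all others, and the iDKO libraries lay inside the control range. The fold change in iTKO was 0.259 (0.214 to 0.314, limma adjusted p = 1.2e-05), and Smad4 was also lower in iTKO than in iDKO (fold change 0.278, 0.219 to 0.353, limma adjusted p = 4.5e-04). In the SMAD4 table the controls stood at 24.9 and 22.9 FPKM and the iKO libraries at 7.19 and 5.11 FPKM, without overlap. The fold change was 0.270 (0.190 to 0.383, limma adjusted p = 0.0176). This call rests on few libraries: without SMAD4 iKO 2 the log2 change was -1.66 with a limma adjusted p of 0.0637.

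The share of Smad4 RNA left was alike in the 2 mutant lines. It was 25.9% ± 5.20 of the control mean in iTKO (SD, n = 3, range 21.9% to 31.8%) 30 days after the first injection and 25.7% ± 6.15 in SMAD4 iKO (SD, n = 2, range 21.4% to 30.1%) at day 6. In bulk RNA, fewer cells that express a gene and less RNA per cell cannot be told apart, and the remainder may hold transcripts that lack the deleted part. Smad4 has 12 exons in its longest transcript, with 10.2% of the joined exons in exon 2, its longest inner exon, and 39.4% in the last. Which exons the allele deletes is not given, so the share of fragments removed is not known here either. Smad1, in contrast to Smad4, was not called lower where it was targeted. Why the genes differ in this was not tested.

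Where Smad4 was not targeted it did not pass the test. At day 6 the controls stood at 51.8, 57.9 and 43.5 FPKM and the iDKO libraries at 41.9, 44.9 and 60.3 FPKM, with 1 below, 1 inside and 1 above the control range (fold change 0.955, 0.723 to 1.26). In day 30 iDKO the fold change was 0.931 (0.748 to 1.16). The TBX3 controls stood at 47.8, 48.0 and 49.5 FPKM and the TBX3 iKO libraries at 50.3, 46.2 and 61.5 FPKM (fold change 1.08, 0.879 to 1.32). The limma adjusted p for these 3 comparisons was 0.782, 0.673 and 0.735.

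Smad2 and Smad3, the receptor-activated SMADs of TGF-beta and activin, were not called in any of the 6 comparisons. Smad2 (chr18:76241580-76310963, plus strand, GRCm38) overlapped with its controls in every mutant group. At day 6 its controls stood at 10.1, 7.69 and 8.30 FPKM and the iDKO libraries at 8.66, 7.64 and 9.11 FPKM. At day 30 the 5 controls ranged from 13.3 to 16.1 FPKM around a median of 14.3, iDKO stood at 14.6 and 13.4 FPKM and iTKO at 13.9, 13.8 and 12.3 FPKM. The groups overlapped at both times. In the SMAD4 table Smad2 stood at 4.39 and 4.21 FPKM in controls and at 5.10 and 4.37 FPKM in iKO, and in the TBX3 table at 9.09, 9.29 and 9.97 FPKM in controls and 11.3, 7.85 and 10.1 FPKM in iKO. Across the 6 comparisons its fold change lay between 0.927 and 1.09, and the widest 95% interval, that of SMAD4 iKO, ran from 0.803 to 1.48.

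Smad3 overlapped with its controls in every SMAD mutant and lay below them in every TBX3 iKO library. At day 6 its controls stood at 7.62, 8.27 and 9.08 FPKM and the iDKO libraries at 8.89, 8.46 and 8.59 FPKM. At day 30 the controls spread from 24.5 to 39.5 FPKM, with iDKO at 28.1 and 29.6 FPKM and iTKO at 34.6, 25.9 and 27.9 FPKM, all inside that range. In the SMAD4 table the controls stood at 10.2 and 7.84 FPKM and the iKO libraries at 7.91 and 6.32 FPKM, with overlap (fold change 0.802, 0.559 to 1.15, limma adjusted p = 0.441). The TBX3 controls stood at 6.43, 7.80 and 7.40 FPKM and the TBX3 iKO libraries at 5.21, 4.47 and 4.51 FPKM. There the groups did not overlap, and the fold change was 0.679 (0.555 to 0.830) and the limma adjusted p 0.063, short of the threshold of 0.05.

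The calls among the 5 genes were few and are set here against those of all genes tested by limma. How many of all genes had groups without overlap was not counted. Such separation, here and elsewhere, is therefore description only. At day 6, 1 of the 5 was called higher and 0 lower in iDKO (0 at an unadjusted p under 0.05), where 15.5% of 10827 genes were called higher and 8.26% lower. That excess of rises, 1681 against 894 genes, depended on the scaling. Median-centred values gave 767 higher and 1193 lower, and quantile-normalised values 1117 and 1162. In day 30 iDKO, 1 was called higher and 0 lower (0 unadjusted), against 9.43% and 9.31% of 11939 genes. In iTKO, 1 was called higher and 1 lower, against 9.13% and 8.95%. Between iTKO and iDKO, 0 were higher (0 unadjusted) and 1 was lower, against 0.218% and 0.544%. In SMAD4 iKO, 0 were higher (0 unadjusted) and 1 was lower, against 1.28% and 2.14% of 12202 genes. In TBX3 iKO, 0 were called in either direction (0 higher and 2 lower unadjusted), against 1.34% higher and 2.08% lower of 9794 genes. The gene called lower in each of these was the targeted Smad4, and the gene called higher was Smad5.

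**Figure D4:**
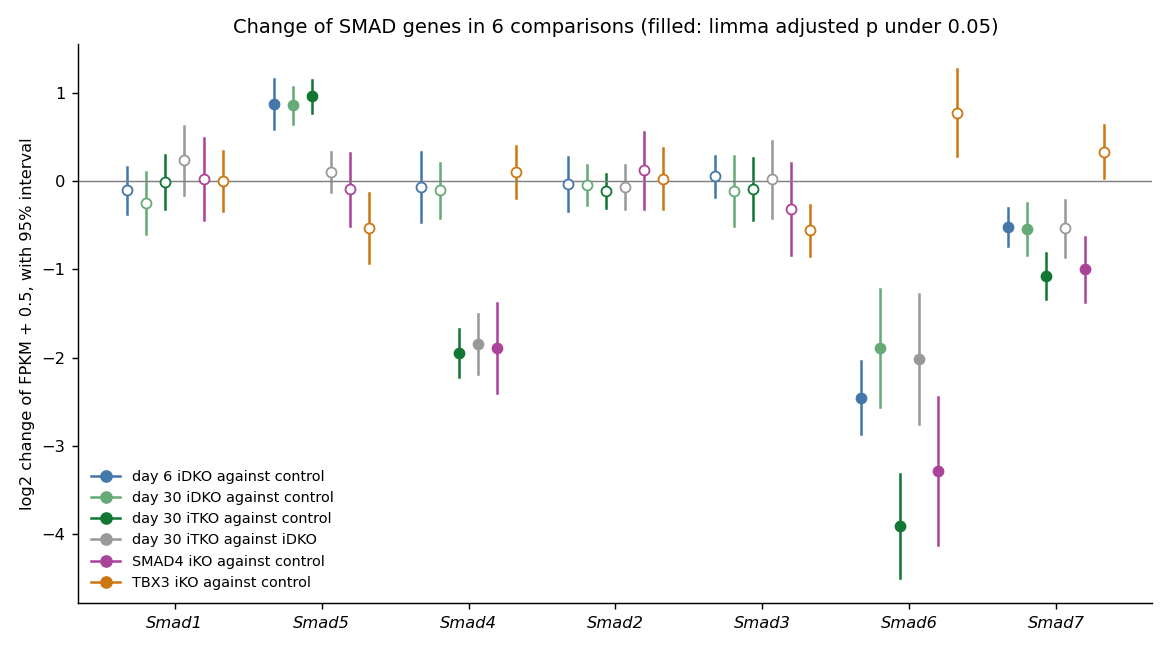
Log2 change of FPKM + 0.5 with its 95% interval for the 5 members and the inhibitory Smad6 and Smad7 in 6 comparisons, marked by colour; filled circles passed a limma adjusted p of 0.05. Smad5 lies at 0.86 to 0.96 in the iDKO and iTKO comparisons with controls, Smad4 at -1.95 to -1.85 where it was targeted, and Smad6 lies lowest, at -3.91 in iTKO.

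The 2 kinds of day 30 controls, which differ in line, Cre and treatment together, gave like values for the members. Oil-treated against tamoxifen-treated controls, the log2 difference was 0.12 for Smad1, -0.05 for Smad5, -0.04 for Smad4, 0.10 for Smad2 and 0.11 for Smad3, all with a limma adjusted p of at least 0.963. Among all 11939 genes, 0 were called higher and 2 lower, with 629 at an unadjusted p under 0.05. The inhibitory Smad6, described next, differed more: it stood at 13.2 and 14.9 FPKM in the tamoxifen-treated controls and at 20.6 to 25.6 FPKM in the oil-treated ones, without overlap (log2 0.65, limma adjusted p = 0.921).

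The inhibitory SMADs, which the BMP-activated complexes induce as a brake on the pathway, fell in every SMAD mutant group. Smad6 stood at 6.20, 8.17 and 7.55 FPKM in the day 6 controls and at 1.12, 1.01 and 0.660 FPKM in iDKO. At day 30 it ranged from 13.2 to 25.6 FPKM in the 5 controls and stood at 5.48 and 3.90 FPKM in iDKO and at 0.804, 1.32 and 0.360 FPKM in iTKO. None of these groups overlapped, and iTKO was also below iDKO (log2 -2.02 ± 0.33 SE, limma adjusted p = 0.0224). The log2 changes from control were -2.45, -1.89 and -3.91 in these 3 comparisons, with limma adjusted p of 4.7e-04, 0.0019 and 1.4e-05. Against controls of the same line only, the day 30 changes of Smad6 were -1.50 in iDKO and -4.17 in iTKO (limma adjusted p = 0.0399 and 1.4e-04). In the SMAD4 table Smad6 stood at 6.09 and 10.5 FPKM in controls and 0.520 and 0.247 FPKM in iKO (log2 -3.29, limma adjusted p = 0.0175). These are changes of FPKM + 0.5, which understate the fall of a gene this low.

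Smad7, which also answers to TGF-beta, fell less than Smad6. It stood at 14.3, 16.4 and 15.3 FPKM in the day 6 controls and at 10.3, 10.8 and 10.5 FPKM in iDKO (log2 -0.52, limma adjusted p = 0.0091). At day 30 it was 30.0 to 41.6 FPKM in controls, 27.8 and 22.8 FPKM in iDKO (log2 -0.54, limma adjusted p = 0.0182) and 16.8, 16.2 and 18.9 FPKM in iTKO (log2 -1.07, limma adjusted p = 2.5e-04). No mutant library of these groups reached its controls. iTKO was below iDKO in every library, though the difference did not pass (log2 -0.53, limma adjusted p = 0.153). SMAD4 iKO stood at 6.14 and 5.73 FPKM against 12.3 and 12.4 FPKM (log2 -0.998, limma adjusted p = 0.0366).

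In the TBX3 iKO libraries neither inhibitory SMAD passed the test. Both lay above their controls in every library, by under the last digit printed for the closest pair of Smad7. The share of all genes that separate in this way was not counted. Smad6 stood at 9.36, 6.28 and 9.69 FPKM against 4.5, 3.81 and 5.75 FPKM (log2 0.78, limma adjusted p = 0.107), and Smad7 at 23.2, 18.9 and 22.9 FPKM against 15.6, 16.7 and 18.9 FPKM (log2 0.33, limma adjusted p = 0.237).

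Smad9, the third BMP-activated SMAD, was close to absent and was not tested, since it stayed below 1 FPKM. It was read by 18, 9 and 7 fragments in the day 6 controls and by 3, 2 and 1 fragments in iDKO. At day 30 it was read by 10, 7, 9, 5 and 8 fragments in controls, by 2 and 0 in iDKO and by 0 in each iTKO library. A count of 0 allows up to 0.210 FPM in these iTKO libraries, against 0.316 to 0.606 FPM measured in the controls. Smad1 had 55.6 to 76.7 FPM in the same controls, so that RNA of the third paralogue was a small fraction of it. No reading of Smad9 came near the level of the others in any group, the mutants included.

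Upstream of the SMADs, a pair of BMP receptor RNAs were called higher with the double and triple deletions. Of 5 tested receptor genes, 2 rose and 3 did not pass in each of day 6 iDKO, day 30 iDKO and iTKO, where 15.5%, 9.43% and 9.13% of all genes were called higher. They were Bmpr1a, a type I receptor (log2 0.50, 0.38 and 0.38), and Bmpr2, a type II receptor (log2 0.83, 0.76 and 0.55). The receptor list had a median log2 of 0.32, 0.38 and 0.33 in these comparisons, where the median of all genes was 0.18, 0.01 and 0.01. In limma's test 0 of 5 passed in SMAD4 iKO and 0 of 4 in TBX3 iKO, with 1 and 1 at an unadjusted p under 0.05. Of the TGF-beta and activin receptors, Tgfbr2, the type II receptor of TGF-beta, rose in day 6 iDKO (9.14 ± 0.592 against 3.13 ± 0.895 FPKM, SD, n = 3 and 3), in day 30 iDKO (log2 1.62), in iTKO (log2 1.22) and in SMAD4 iKO (log2 1.31). Acvr1c, a type I receptor, fell in day 30 iDKO (log2 -0.71) and iTKO (log2 -0.88).

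Among BMP ligand genes, Bmp3 rose and Bmp8a fell in all 4 SMAD mutant comparisons with controls. Bmp3, which lacks the usual activity of BMP ligands and can oppose them, stood at 52.2 ± 9.28 FPKM in iTKO against 6.07 ± 1.93 in controls (SD, n = 3 and 5, log2 3.04), and its log2 change was 2.31 at day 6, 1.55 in day 30 iDKO and 1.84 in SMAD4 iKO, and TBX3 iKO had the largest of the 5 (3.67). Bmp8a stood at 4.87 ± 0.439 FPKM in day 6 iDKO against 13.5 ± 0.970 (SD, n = 3 and 3, log2 -1.38), with -0.94 in day 30 iDKO, -1.73 in iTKO and -1.57 in SMAD4 iKO. Bmp8b, its paralogue, which may share reads with it, fell in day 6 iDKO (log2 -1.78), day 30 iDKO (-1.16) and iTKO (-2.11), and Bmp7 fell in iTKO (-0.74). The ligand list had 4 to 6 tested members, with 1 rise in each comparison with controls. There were 2 falls in iDKO at either day, 3 in iTKO and 1 in SMAD4 iKO. Of all genes, 15.5%, 9.43%, 9.13% and 1.28% were called higher in these 4 SMAD comparisons and 1.34% in TBX3 iKO. Called lower were 8.26%, 9.31%, 8.95% and 2.14% in the same 4. There the list's median log2 was -0.86, -0.76, -0.46 and -0.70, beside 0.18, 0.01, 0.01 and 0.03 for all genes. Ligands of the TGF-beta and activin group were too low to test, apart from Tgfb1 at day 30, which did not pass. Of the ligand antagonists and decoys, Twsg1, a secreted BMP-binding protein, rose in day 6 iDKO (log2 0.65), day 30 iDKO (0.47) and iTKO (0.48), Fstl1 rose in day 30 iDKO (1.43), and the decoy receptor Bambi fell in day 30 iDKO (-0.97) and iTKO (-0.80).

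Most genes whose products act on the SMAD proteins did not pass the test. Of 17 tested, 6 rose in day 6 iDKO (15.5% of all genes were called higher), 4 rose and 2 fell in day 30 iDKO (9.43% and 9.31% of all genes), and 3 rose in iTKO (9.13% of all genes). The list's median log2 was 0.32, 0.17 and 0.12, beside 0.18, 0.01 and 0.01 for all genes. Of 18 in SMAD4 iKO 1 rose (1.28% of all genes were called higher), and of 17 in TBX3 iKO 1 fell (2.08% were called lower). The list medians there were -0.02 and -0.05, beside 0.03 and -0.06 for all genes. Pmepa1, a TGF-beta-induced inhibitor that holds SMAD2 and SMAD3 away from their receptors, stood at 25.5 ± 3.63 FPKM in day 6 iDKO against 3.78 ± 0.206 (SD, n = 3 and 3, log2 2.60). At day 30 it stood at 78.3 ± 14.3 FPKM in iDKO and 16.1 ± 1.75 in iTKO against 8.07 ± 0.891 in controls (SD, n = 2, 3 and 5). iTKO, in which Smad4 is targeted too, was thus below iDKO (log2 -2.24, limma adjusted p = 1.3e-04) and above control (log2 0.95). SMAD4 iKO was above its control as well (log2 1.19). The co-repressor gene Skil rose by 1.06 on the log2 scale in day 6 iDKO, by 0.96 in day 30 iDKO and by 0.61 in iTKO, and Tgif1, another co-repressor, by 1.27, 0.76 and 0.75. The falls were in Nedd4l, a ubiquitin ligase of activated SMAD2 and SMAD3 (day 30 iDKO, log2 -0.67), and in Wwp1, a related ligase (-0.48 in day 30 iDKO and -0.67 in TBX3 iKO).

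Downstream, BMP target genes fell in each SMAD mutant. Of 6 tested, 5 fell in day 6 iDKO, 6 in day 30 iDKO, 6 in iTKO and 5 in SMAD4 iKO, and the remaining gene did not pass. Of all genes, 8.26%, 9.31%, 8.95% and 2.14% were called lower there. Smad6 and Smad7, described above, are among the 6 tested. The median log2 was -1.99, -1.95, -2.92 and -2.33, where that of all genes was 0.18, 0.01, 0.01 and 0.03. Id3, an inhibitor of basic helix-loop-helix factors and an immediate BMP target, stood at 7.61 ± 1.65 FPKM in day 6 iDKO against 31.3 ± 4.15 (SD, n = 3 and 3) and at 9.61 ± 0.258 FPKM in SMAD4 iKO against 77.03 ± 11.9 (SD, n = 2 and 2). Between iTKO and iDKO 1 of the 6, Smad6, was called, and in TBX3 iKO 0 of 5 by limma (4 at an unadjusted p under 0.05, median log2 0.35). The TGF-beta target list, which shares Skil, Tgif1 and Pmepa1 with the regulators and Smad7 with the BMP targets, had 3 rises and 2 falls among 6 tested genes in both iDKO comparisons, 4 and 1 in iTKO, and 1 and 1 in SMAD4 iKO. Of all genes, 15.5% were called higher and 8.26% lower at day 6, 9.43% and 9.31% in day 30 iDKO, 9.13% and 8.95% in iTKO, and 1.28% and 2.14% in SMAD4 iKO. The list's median log2 was 0.70, 0.67, 0.68 and -0.10 in these 4 comparisons, beside the medians of all genes given above. Its falls were Smad7 and Tgfbi, and Tgfbi, an extracellular matrix gene, fell in iDKO at day 6 (log2 -1.63) and day 30 (-1.53) but did not pass in iTKO (-0.30, limma adjusted p = 0.236). In SMAD4 iKO it stood at 50.4 ± 9.27 FPKM against 102 ± 9.94 (SD, n = 2 and 2), with every iKO library below both controls, and did not pass (log2 -1.02, limma adjusted p = 0.0537). The difference in Tgfbi between iTKO and iDKO did pass (log2 1.23, limma adjusted p = 0.0221).

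The genes with the pattern most like a member were found by the root mean square difference of their log2 deviations from the control mean over all libraries of a table. For Smad5 over the 10 libraries of the day 30 table they were Galnt6 (0.11), Plekha2 (0.12) and Daglb (0.12), and over the 6 libraries of the day 6 table Lipa (0.08), Plbd1 (0.09) and Cbwd1 (0.10). For Smad4 over the day 30 libraries the closest were Slc23a4 (0.36), Mir6955 (0.42) and Asap1 (0.45), farther off than those of Smad5. In the 4 libraries of the SMAD4 table they were H2-Q1 (0.03), whose reads near-identical family members may share, Tbx3os2 (0.08) and Mme (0.08). Symbols of predicted genes were left out of this search, which is a description without a test.

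The neighbours of the members on the chromosome were read to see whether a change reached past the gene. They are the nearest genes with a row in the same table, and some lie far off. Tgfbi lies 63448 bases from Smad5 and moved the other way in iDKO, as given above, while Trpc7 on the other side was too low to test. Mex3c, 46434 bases from Smad4 and on the other strand, rose in day 6 iDKO (43.1 ± 4.96 against 22.5 ± 3.31 FPKM, SD, n = 3 and 3), in day 30 iDKO (log2 1.09) and in iTKO (log2 1.03), so that in iTKO the RNA of Smad4 fell while that of its neighbour rose. In SMAD4 iKO, the other group with Smad4 targeted, Mex3c stood at 40.2 ± 7.32 FPKM against 20.8 ± 2.92 (SD, n = 2 and 2), above both controls in each library, and did not pass (log2 0.93, limma adjusted p = 0.0772). Elac1, on the other side of Smad4, did not pass in any comparison. Mmaa and Otud4, 43458 and 240100 bases from Smad1, did not pass in any comparison in which they were read. The same held for Ier3ip1, 619054 bases from Smad2. Zbtb7c, on the other side of Smad2, was too low to test, as was Gm4890, a neighbour of Smad1 in SMAD4 iKO. Aagab, beside Smad3, fell in TBX3 iKO (6.68 ± 0.813 against 10.2 ± 0.381 FPKM, SD, n = 3 and 3, limma adjusted p = 0.048), the comparison in which Smad3 missed the threshold. Smad6, 195082 bases away, is the other neighbour of Smad3. It fell in the day 6 iDKO, day 30 iDKO, iTKO and SMAD4 iKO comparisons, while Smad3 did not pass.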

How the data were processed

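Per the submitters' processing notes, reads of the 26 libraries went through HISAT2 2.2.1 and featureCounts 2.0.1, and the builds named are GRCm39 and mm10, not tied to a table. The authors deposited FPKM values in 4 separately normalized tables. In 82.4% (day 6 SMAD1/5 table), 86.4% (day 30) and 81.2% (TBX3) of values checked, up to 200 fragments, FPKM gave whole fragments within 0.02, from which depth and fragments were computed, up to a common whole factor. The 4 libraries of the SMAD4 table gave no such step. Lengths came from GENCODE M21. FPKM was taken to log2 after adding 0.5, and limma 3.58.1 (R 4.3.3) was run on genes that reached 1 FPKM in at least the number of libraries of the smallest genotype group (mean-variance trend, Benjamini-Hochberg over all genes, threshold 0.05), with the 10 day 30 libraries together and the 5 controls as 1 group. Ratios were tested by exact permutation in scipy 1.17.1.

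The 5 members, the lists and the tests were chosen with earlier results of these data known. The text names the SMADs, up to 3 listed genes of smallest adjusted p per list and comparison past 0.05 or the listed genes a small count needs, the 3 genes most like Smad5 and Smad4, and the nearest neighbours. On simulated data the fit recovered 69% of 2-fold changes in the day 6 iDKO comparison of 10827 genes. At day 30, with 11939 genes, it recovered 74% in iDKO, 73% in iTKO and 72% in iTKO against iDKO. It recovered 15% in SMAD4 iKO of 12202 genes and 60% in TBX3 iKO of 9794 genes. False calls numbered 18, 15, 5, 14, 2 and 4 in the same order, with 200 genes changed in each simulation. At day 6 in the SMAD1/5 table, residuals of libraries with equal replicate numbers correlated (0.143, 0.583 and 0.221), so numbers may pair libraries there; the pairing changed no call of a member. Alternatives were other pseudocounts, filters, scalings and priors, the replicate block, controls of 1 line, fits of 2 groups only, and single libraries left out.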

Additional observations from a re-analysis of the deposited data

Results flagged for a closer look

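Smad4 changed more in iTKO than in iDKO at day 30, by a log2 difference of -1.85 in limma's test of the 2 mutant groups, as the target list of the iTKO mice has it. Smad6 also differed between these groups, with a log2 difference of -2.02. In both genes every iTKO library was below every iDKO library. Among the day 30 controls, the oil-treated library 4 stood apart for Smad9 at 0.0589 FPKM, the lowest of 5, a value that rests on 5 fragments. Chance flags about 1 in 20 such groups, and 8 were checked.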

How the results depend on the processing

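Of 473 alternative values for the 30 member changes, 445 kept their direction and side of the threshold, 2 lost a call and 26, all of changes that had not passed, turned sign. The Smad5 rises and the fall of Smad4 in iTKO against control held in every setting run. The 2 lost calls were of Smad4: iTKO against iDKO with the replicate block (-1.8870, limma adjusted p = 0.0518), and SMAD4 iKO without replicate 2 (-2.1185 to -1.6644 over libraries left out, limma adjusted p up to 0.0637). Signs turned in Smad3 at day 6 with median-centred (-0.1155) and quantile-normalised values (-0.0996), in Smad2 in day 30 iDKO against controls of its line (0.0189), in Smad1 in SMAD4 iKO with median-centred values (-0.0001) and, with the replicate block, in Smad1 in iTKO (0.0856) and Smad3 in iTKO against iDKO (-0.0294). Leaving out 1 library moved Smad4 (-0.2236 to 0.0366), Smad2 (-0.1109 to 0.0756) and Smad3 (-0.0034 to 0.1161) at day 6, Smad2 in day 30 iDKO (-0.1060 to 0.0197), Smad1 in iTKO (-0.1615 to 0.1369), Smad5 (-0.0170 to 0.2210) and Smad3 (-0.0988 to 0.1073) in iTKO against iDKO, Smad1 in SMAD4 iKO (-0.1504 to 0.1989), and Smad1 (-0.1150 to 0.1169), Smad4 (-0.0070 to 0.1982) and Smad2 (-0.0822 to 0.1669) in TBX3 iKO.

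Counts of all genes called depended more on the setting. With 1 library left out they were 1040 to 2260 at day 6 (2575 with all), 895 to 2225 in day 30 iDKO (2238), 1246 to 2045 in iTKO (2159), 37 to 247 in SMAD4 iKO (417), 42 to 334 in TBX3 iKO (335) and 18 to 307 in iTKO against iDKO (91). With the replicate block they were 746 in day 30 iDKO, 898 in iTKO, 834 in SMAD4 iKO, 40 in TBX3 iKO and 8 in iTKO against iDKO, groups in which equal numbers were not shown to pair libraries. Controls of the same line gave 1022 in day 30 iDKO, a fit of iTKO and iDKO alone 29, and no filter 233 in SMAD4 iKO and 126 in TBX3 iKO. The Smad5 to Smad1 difference was 0.8194 to 1.1083 in iTKO with 1 library left out, where the design can no longer pass 0.05, -0.2860 to 0.0187 in iTKO against iDKO and -0.2518 to 0.0210 in SMAD4 iKO. Causes of these shifts were not tested. Groups of 2 and the unknown depth of the SMAD4 table limit what could be called there.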
